A study of Mus musculus with 24 samples.

Results

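The largest proteins of striated muscle and of the cytoskeleton are encoded by a small number of very long transcripts, and 8 of these genes were followed in the *M. gastrocnemius* of mice exposed to normobaric hypoxia. They are *Ttn* and *Neb*, which encode the giant proteins of the sarcomere, *Dst*, *Macf1* and *Plec*, which encode plakins, *Syne1* and *Syne2*, which encode nesprins, and *Ahnak*. The members were taken by gene name, so that every non-control probe annotated with one of these names on the array was included, giving 20 probes of 8 genes among the 34797 gene names on the array. No probe carried *Plec1*, the older name of *Plec*. The list itself was selected on the values of Hypox against Norm in these same arrays, so the differences between the groups are a description. No P-value is printed for a member, and which members passed the threshold of the fit over all probes is given only beside the share of all probes that did, and supports nothing further.

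The mice were C57BL/6JOlaHsd males that were 10 weeks old on arrival. They received a low-fat diet (10% energy from fat) for 3 weeks and a high-fat diet (40% energy from fat) for 6 weeks, and were then fasted. The final 6 h were spent in normoxia (20.9% oxygen, Norm, n = 12) or in hypoxia (12% oxygen, Hypox, n = 12), so that strain, sex, diet and fasting were shared by both groups. The RNA of each whole muscle was labelled with Cy5 and hybridised on 1 array against a Cy3-labelled pool of all samples, and the values below are log2 ratios of Cy5 over Cy3 after loess normalization within the array. After loess, a value of 0 is the typical ratio of an array at that signal intensity. Its sign alone does not place a probe above or below the pool. For example, *Ahnak* base 17962 averaged 0.38 in Norm and 0.50 in Hypox, although the pool holds all samples. The 24 arrays lay on 6 slides with 2 Norm and 2 Hypox arrays each. The mean Cy5 signal of an array lay between 58.3 and 933 for Norm, with a median of 341, and between 63.5 and 1014 for Hypox, with a median of 368. It was lowest on slide 1 (58.3 to 102) and highest on slide 6 (645 to 1014). Of the markers of muscle fibers (*Acta1*, *Ckm*, *Tnnt3*, *Myh4*, *Pvalb*, *Mylpf* and *Atp2a1*), 7 of 7 were tested, each at 16.6 times the local background or more. In whole muscle, fewer cells of a type and less RNA per cell cannot be told apart.

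Titin runs from the Z-disc to the M-line of the sarcomere, where it sets passive stiffness through an elastic segment that is rich in proline, glutamate, valine and lysine (PEVK), and nebulin runs along the actin filament. Plakins tie actin, microtubules and intermediate filaments to each other and to the membrane. Nesprins span the outer nuclear membrane and bind SUN proteins, by which the nucleus is held to the cytoskeleton, and AHNAK is a giant scaffold below the plasma membrane that binds annexin A2 and S100A10. These transcripts are so long that probes of the same gene can lie far apart, and each probe was therefore kept on its own.

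The following probe sequences of *Ttn* and *Neb* are shown because probes of these genes differed within the gene. That of *Dst* is its probe called lower after adjustment. Other member probes, among them *Ttn* base 101578 and *Ahnak* base 147, are not shown. Each is the 60-mer on the array, read 5′ to 3′ and named by its first base in the transcript to which it is annotated. Capitals mark a 9-base stretch that occurs 2 times in the same probe.
Ttn base 2094: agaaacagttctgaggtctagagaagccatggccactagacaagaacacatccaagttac
Ttn base 33226: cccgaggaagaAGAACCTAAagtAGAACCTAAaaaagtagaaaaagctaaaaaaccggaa
Ttn base 93881: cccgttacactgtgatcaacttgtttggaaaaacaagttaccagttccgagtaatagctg
Neb base 10763: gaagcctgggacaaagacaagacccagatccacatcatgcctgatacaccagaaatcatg
Neb base 3511: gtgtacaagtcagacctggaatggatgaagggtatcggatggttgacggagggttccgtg
Neb base 21759: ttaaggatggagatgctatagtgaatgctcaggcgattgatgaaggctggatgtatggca
Dst base 773: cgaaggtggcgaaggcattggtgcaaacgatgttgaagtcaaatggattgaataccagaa

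In the mouse build mm9, the *Ttn* probes lie on the minus strand of chromosome 2 at chr2:76802542-76802601 (base 2094 of NM_028004), chr2:76655847-76655906 (base 33226 of NM_011652), chr2:76551742-76551801 (base 93881 of NM_011652) and chr2:76542077-76542136 (base 101578 of NM_011652). The probe at base 33226 holds 19 codons for proline, glutamate, valine or lysine among the 20 codons of its open frame, which is the composition of the PEVK segment. The *Neb* probes lie on the same strand at chr2:52097549-52097608 (base 10763 of NM_010889), chr2:52077301-52077360 (base 3511 of ENSMUST00000069592) and chr2:51992837-51992896 (base 21759 of NM_010889). Along the chromosome, the *Neb* probe at base 3511 therefore lies downstream of the one at base 10763. The *Dst* probe at base 773 of NM_133833 spans an exon junction, from chr1:34209337 to chr1:34211389 on the plus strand. Exon numbers of mm9 were not analysed here.

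Of the 20 member probes, 17 passed the filter (mean Cy5 signal over 2 times the local background) and were tested among 14421 probes with limma's moderated test. Of these, 7 probes of 4 genes were lower in the Hypox group with an adjusted P-value under 0.05 and 0 were higher. These were 3 of *Ttn*, 2 of *Neb* and 1 each of *Dst* and *Ahnak*. Among all probes tested, 0.700% were called lower and 0.243% higher in this way. At an unadjusted P-value under 0.05, 8 member probes were lower and 1 was higher, with 6.44% lower and 7.40% higher among all probes. The median log2 difference was -0.16 over the 17 member probes and 0.022 over all probes tested. Without Norm replicate 5, Norm replicate 7 or Hypox replicate 7, the number of lower member probes was 4. Since the members were listed on this same contrast, nothing is read from these counts. With each array centred on its median in place of loess, limma called 0 of the 17 member probes lower or higher, with or without adjustment, and the median of all probes moved to 0.24. The differences of *Neb* base 21759 (0.36), *Plec* (0.41), *Macf1* (0.18), *Ahnak* base 985 (0.28) and *Syne1* base 8496 (0.0045), none of them called, were then positive. In a fit of the deposited table, limma called 0 of 18 after adjustment and 6 lower without it. These 6 hold 4 of the 7 probes (*Ttn* bases 33226 and 93881, *Dst* base 773 and *Ahnak* base 147) together with *Ahnak* base 14972 and *Syne2* base 2960, while *Ttn* base 101578 and both *Neb* probes did not pass there even without adjustment.

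**Figure D1:**
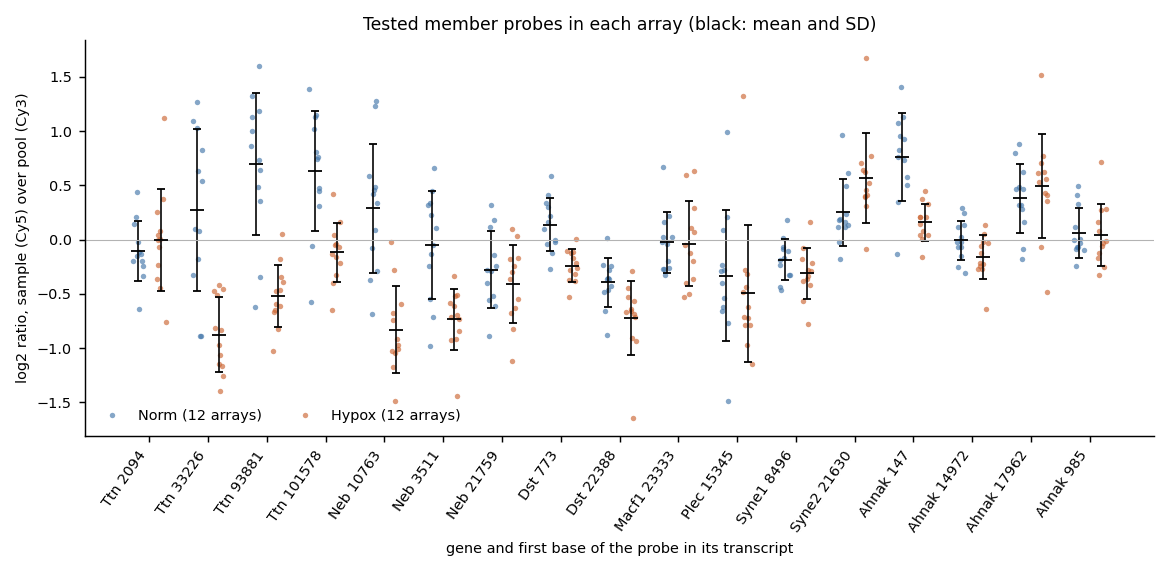
Log2 ratio of sample over pool (y axis) in each of the 12 Norm (blue) and 12 Hypox (orange) arrays for the 17 tested probes (x axis, gene and first base in the transcript, each gene ordered 5′ to 3′ along the chromosome), with mean and SD in black. The *Ttn* probes at bases 33226 and 93881 and the *Neb* probe at base 10763 separate the groups most, while the *Ttn* probe at base 2094 and the *Neb* probe at base 21759 overlap throughout.

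*Ttn* was lower in the Hypox group by 3 of its 4 probes. At base 93881, the log2 ratio lay between -0.62 and 1.60 over the Norm arrays, with a median of 0.80, and between -1.03 and 0.048 over the Hypox arrays, with a median of -0.53. Of the 12 Norm arrays, 10 lay above every Hypox array, and Norm replicates 10 (-0.35) and 12 (-0.62) lay within the Hypox range. The mean fell from 0.70 ± 0.66 to -0.52 ± 0.29 (SD, n = 12 each), a difference of -1.21 (SE 0.19, 95% interval -1.61 to -0.82), or 2.32-fold. It was lower on 6 of 6 slides, by between -1.80 and -0.49, and 1 of the 14421 probes had a lower difference.

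The probe at base 33226 lay between -0.89 and 1.27 over the Norm arrays, with a median of 0.32, and between -1.40 and -0.42 over the Hypox arrays, with a median of -0.90. Again 10 Norm arrays lay above every Hypox array, with replicates 10 (-0.89) and 12 (-0.89) as the exceptions. The difference was -1.15 (SE 0.22, 95% interval -1.60 to -0.70) and was negative on 6 of 6 slides.

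The probe at base 101578, closest to the 3′ end and the brightest of the 4 at 382 times the background, lay between -0.58 and 1.38 over the Norm arrays, with a median of 0.75, and between -0.65 and 0.42 over the Hypox arrays, with a median of -0.10. Its difference was -0.75 (SE 0.17, 95% interval -1.10 to -0.41), negative on 5 of 6 slides and 0.019 on slide 6. That slide holds Norm replicate 12 (-0.58), the lowest Norm array for this probe, beside Norm replicate 6 (0.31) and Hypox replicates 7 (-0.064) and 9 (-0.16). The mean Cy5 signal was also highest on that slide, and its part was not tested. The difference was -0.11 with median centring and -0.28 (SE 0.37) in the deposited table.

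The probe at base 2094 reads the 5′ end of the gene. It lay between -0.64 and 0.44 over the Norm arrays, with a median of -0.14, and between -0.76 and 1.12 over the Hypox arrays, with a median of -0.00036, and the groups overlapped. Its difference was 0.10 (SE 0.15, 95% interval -0.20 to 0.41), and it was 0.00094 without Hypox replicate 2, the array at 1.12.

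*Neb* was lower by 2 of its 3 probes. At base 10763 the log2 ratio lay between -0.69 and 1.28 over the Norm arrays, with a median of 0.38, and between -1.49 and -0.025 over the Hypox arrays, with a median of -0.95. Here 8 Norm arrays lay above every Hypox array and 8 Hypox arrays below every Norm array. The difference was -1.12 (SE 0.19, 95% interval -1.51 to -0.72), or 2.17-fold, and was negative on 6 of 6 slides, from -1.54 to -0.65. It was -0.48 with median centring and -0.67 (SE 0.35) in the deposited table.

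At base 3511, *Neb* lay between -0.98 and 0.66 over the Norm arrays, with a median of 0.027, and between -1.44 and -0.34 over the Hypox arrays, with a median of -0.70. Of the Norm arrays 9 lay above every Hypox array, and the difference was -0.69 (SE 0.16, 95% interval -1.01 to -0.37), negative on 6 of 6 slides, and -0.55 (SE 0.27) in the deposited table. The probe at base 21759, at the 3′ end, lay between -0.89 and 0.32 over the Norm arrays, with a median of -0.28, and between -1.12 and 0.098 over the Hypox arrays, with a median of -0.33. These ranges overlapped almost completely. Its difference was -0.14 (SE 0.14, 95% interval -0.42 to 0.15), although at 93.1 times the background it was well above background on 12 of 12 arrays of either group.

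Among the plakins, *Dst* was lower at base 773 and *Macf1* and *Plec* were not called. Dystonin links intermediate filaments, actin and microtubules in muscle and nerve. At base 773 it lay between -0.27 and 0.58 over the Norm arrays, with a median of 0.13, and between -0.53 and 0.0091 over the Hypox arrays, with a median of -0.24. The difference was -0.38 (SE 0.085, 95% interval -0.55 to -0.20), or 1.30-fold, with 7 Norm arrays above every Hypox array, 5 Hypox arrays below every Norm array and 6 of 6 slides negative. Its size depended on the processing, with -0.86 (SE 0.20) from processed signals and -0.11 (SE 0.24) with median centring. At base 22388 it was -0.33 (SE 0.11, 95% interval -0.56 to -0.097), past the unadjusted threshold alone and negative on 6 of 6 slides, and -0.25 without Hypox replicate 2, the lowest array at -1.64. The *Dst* probe at base 4937 was not well above background on any array and gives no difference.

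*Macf1*, which links actin and microtubules, was read by 1 probe at base 23333 (chr4:123026978-123027037, minus strand). It lay between -0.33 and 0.67 over the Norm arrays, with a median of -0.032, and between -0.53 and 0.63 over the Hypox arrays, with a median of -0.088, a difference of -0.014 (SE 0.13, 95% interval -0.29 to 0.26). *Plec*, which anchors desmin filaments at Z-discs and membranes, was read at base 15345 (chr15:76001454-76001513, minus strand) at 146 times the background. It lay between -1.49 and 0.99 over the Norm arrays, with a median of -0.35, and between -1.15 and 1.32 over the Hypox arrays, with a median of -0.67, a difference of -0.16 (SE 0.23, 95% interval -0.64 to 0.31). The interval of *Plec* is the widest of the members, and its extremes were Norm replicates 9 (-1.49) and 11 (0.99) and Hypox replicate 12 (1.32). The high arrays, Norm replicate 11 and Hypox replicate 12, both lie on slide 1, the dimmest. With an array left out, the difference of *Plec* lay between -0.33 and -0.042. The 95% intervals of *Macf1* and *Plec* both hold 0. That of *Plec* also holds differences as large as that of *Dst*, and that of *Macf1* does not.

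Of the nesprins, *Syne1* was read close to the background. Its probe at base 8496, at 2.02 times the background, was well above background on 6 Norm and 4 Hypox arrays and gave a difference of -0.13 (SE 0.089, 95% interval -0.31 to 0.056). From processed signals it was -0.57 (SE 0.25) and passed the unadjusted threshold. The probe at base 6896 was well above background on 0 arrays. The probes of *Syne2* went in opposite directions. At base 21630 (chr12:77211828-77211887, plus strand) it lay between -0.18 and 0.96 over the Norm arrays, with a median of 0.17, and between -0.088 and 1.67 over the Hypox arrays, with a median of 0.49. The difference was 0.32 (SE 0.14, 95% interval 0.028 to 0.61), positive on 5 of 6 slides. The groups overlapped. This probe was past the unadjusted threshold in the higher direction, but not with processed signals, Cy5 without Cy3, median centring or the deposited table, nor in the 4 fits that left out Norm replicate 11, Norm replicate 12, Hypox replicate 2 and Hypox replicate 7 in turn. Without Hypox replicate 2, the array at 1.67, it was 0.22. The *Syne2* probe at base 2960 lay under the filter at 1.83 times the background and was well above background on 7 Norm and 4 Hypox arrays. It gave -0.32 (SE 0.090), negative on 6 of 6 slides and past the unadjusted threshold in the fit without the filter, and -0.54 in the deposited table.

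*Ahnak* was lower by 1 of 4 probes. At base 147 of NM_001039959 (chr19:9074153-9074212, plus strand) it lay between -0.13 and 1.41 over the Norm arrays, with a median of 0.79, and between -0.16 and 0.45 over the Hypox arrays, with a median of 0.17. Of the Norm arrays 10 lay above every Hypox array. The difference was -0.60 (SE 0.12, 95% interval -0.85 to -0.35), or 1.52-fold, and was negative on 6 of 6 slides. The other probe of that transcript, at base 985, gave -0.018 (SE 0.10). The probes of the long transcript NM_009643 gave -0.15 (SE 0.082) at base 14972, at 2.15 times the background (-0.38 and past the unadjusted threshold in the deposited table), and 0.12 (SE 0.16) at base 17962, at 67.0 times the background.

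**Figure D2:**
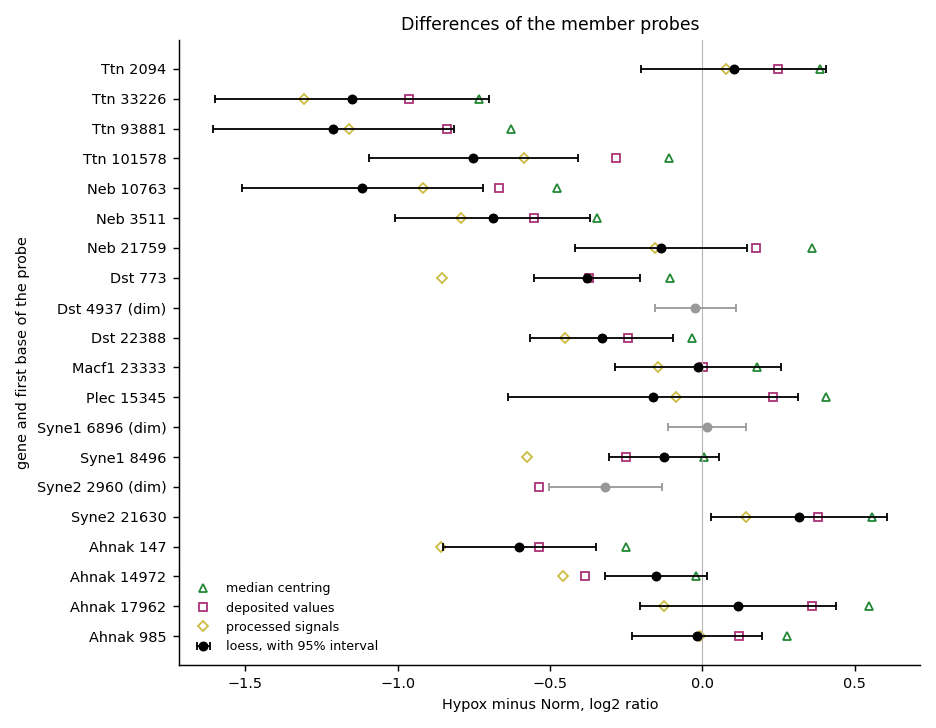
Difference of Hypox minus Norm in log2 ratio (x axis) for each of the 20 member probes (y axis, ordered 5′ to 3′ along the chromosome within a gene), with the 95% interval of the loess-normalized fit in black, dim probes in grey, and the values with median centring (triangles), on the deposited values (squares) and from processed signals (diamonds). The order of the probes within *Ttn* and *Neb* is similar under each processing, while median centring lies to the right for every tested probe.

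Probes of the same gene thus differed. Taking the difference between 2 probes within an array removes any shift that both probes share in that array. In *Ttn*, the log2 ratio at base 93881 minus that at base 101578 averaged 0.062 ± 0.45 over the Norm arrays and -0.40 ± 0.39 over the Hypox arrays (SD, n = 12 per group), a difference of -0.46 (SE 0.17). It was negative on 5 of 6 slides, and 10 Hypox arrays lay below the Norm median of 0.060. It was -0.52 after median centring, -0.57 from processed signals, -0.54 from Cy5 without Cy3 and -0.56 in the deposited table. For base 33226 against base 101578 these values were -0.40 (SE 0.20), -0.62, -0.72, -0.51 and -0.68. For the 5′ probe at base 2094 against base 101578 they were 0.85 (SE 0.25), 0.50, 0.67, 0.62 and 0.53.

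In *Neb*, base 10763 minus base 21759 was 0.56 ± 0.35 in Norm and -0.42 ± 0.41 in Hypox, a difference of -0.98 (SE 0.16) that was negative on 6 of 6 slides, with 9 Hypox arrays below every Norm array. Under the other processings it was between -0.84 and -0.76. Base 3511 against base 21759 gave -0.55 (SE 0.20), and between -0.73 and -0.54 otherwise. In *Ahnak*, base 147 against base 985 gave -0.58 (SE 0.14), negative on 6 of 6 slides, and between -0.85 and -0.53 otherwise. In *Dst*, base 773 against base 22388 gave -0.047 (SE 0.14), but -0.41 (SE 0.23) from processed signals, -0.16 from Cy5 without Cy3, -0.13 in the deposited table and -0.072 after median centring. The differences along *Ttn* do not follow 1 direction from 5′ to 3′, since the inner probes lay lower than both ends. Its 5′ probe is annotated to a different transcript from the others. Likewise, *Neb* base 3511 is annotated to another transcript than *Neb* base 21759, and *Dst* base 773 to another than *Dst* base 22388. Along the chromosome, the differences of *Neb* rise from 5′ to 3′ (-1.12, -0.69 and -0.14), as do those of *Syne2* (-0.32 at a probe under the filter, then 0.32). The tested *Dst* probes differ little (-0.38 and -0.33), and those of *Ahnak* (-0.60, -0.15, 0.12 and -0.018) keep no single direction. Isoforms, place in the transcript and probe affinity were not tested as a part of these differences, and the contrast is the same on which the members were listed.

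**Figure D3:**
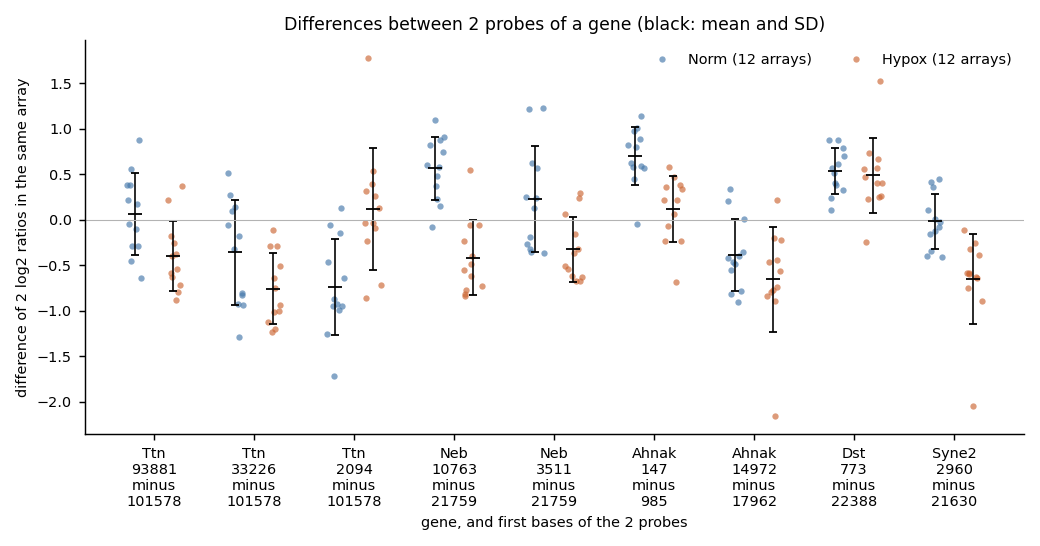
Difference between the log2 ratios of 2 probes of a gene in the same array (y axis) in Norm (blue) and Hypox (orange) for 9 probe pairs (x axis), with mean and SD in black. The *Neb* pair 10763 minus 21759 separates the groups most, with 9 of 12 Hypox arrays below every Norm array, and the *Dst* pair overlaps in these loess-normalized values.

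A measure of position along transcripts that did not use the members was the median difference between the probe nearest to the 3′ end and the one farthest from it, over 1487 other transcripts with several tested probes (median distance 468 bases). This 3′ index averaged 0.064 ± 0.049 over the Norm arrays and 0.075 ± 0.038 over the Hypox arrays (SD, n = 12 per group), a difference within the spread between arrays (p = 0.516 by a 2-sided permutation test). Over the 239 pairs at least 2000 bases apart the difference was 0.054 (p = 0.0545 by the same permutation test). Of the 226 probes of other genes that start at base 10000 or beyond of their transcript, 87 probes of 79 genes were tested. With limma, 0 passed after adjustment, and 6 of the 87 were lower and 0 higher at the unadjusted threshold, with a median difference of -0.045. Among all probes tested, 6.44% were lower and 7.40% higher at that threshold, with a median of 0.022. The lowest P-values were those of *Chd9* (-0.25, adjusted p = 0.177), *Ryr1*, the calcium release channel of the sarcoplasmic reticulum (-0.56, adjusted p = 0.235) and *Ubr4* (-0.25, adjusted p = 0.242).

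The base composition of the probes was examined after the values were seen. Purines (A and G) made up 76.7% of the *Ahnak* probe at base 147, against a median of 50.0% over the probes tested. By this share, that probe stood at percentile 99.5 of all tested probes and the *Ttn* probe at base 33226 at percentile 99.4. *Dst* base 773 (66.7%) stood at percentile 96.4 and *Neb* base 3511 (63.3%) at percentile 92.1. *Neb* base 21759, which was not called, holds the same share as *Neb* base 3511. Over 64 tested probes of other genes with over 80% purines, of which 21 hold A and G alone, the difference was negative for 64, with a median of -0.65, and 21 were lower after adjustment. Of these probes 49 have no gene symbol and the rest read 9 genes. Among the 74 other probes with 70 to 80% purines, the range that holds *Ttn* base 33226 and *Ahnak* base 147, the median was -0.21 and 5 were lower and 0 higher after adjustment. Among the 1397 other probes with 60 to 70% purines, the range of *Dst* base 773 and *Neb* bases 3511 and 21759, the median was 0.022. Of these, 17 were lower and 3 higher after adjustment. Among the 4965 probes with 50 to 60% purines the median was 0.035, with 29 lower and 21 higher after adjustment.

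The mean log2 ratio of the 64 purine-rich probes lay between -0.16 and 1.87 over the Norm arrays, with a median of 0.51, and between -0.21 and 0.15 over the Hypox arrays, with a median of -0.016, with 10 Norm arrays above every Hypox array. The deviations of the member probes from their group means followed this level to a different extent. The correlation over the 24 arrays was 0.73 for *Ahnak* base 147, 0.72 for *Ttn* base 33226, 0.66 for *Neb* base 3511 and 0.64 for *Ttn* base 101578, and lower for *Ttn* base 93881 (0.40), *Neb* base 10763 (0.24) and *Dst* base 773 (0.15). Of the member probes not called, *Ahnak* base 985, with 40.0% purines, had a correlation of 0.46, and the others lay between -0.091 and 0.27. The arrays, the pool and the normalization are shared by these values. The *Ttn* probe at base 93881 holds 50.0% purines and that at base 101578 holds 41.7%, and both were lower. The part of purine content in the differences was not tested.

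**Figure D4:**
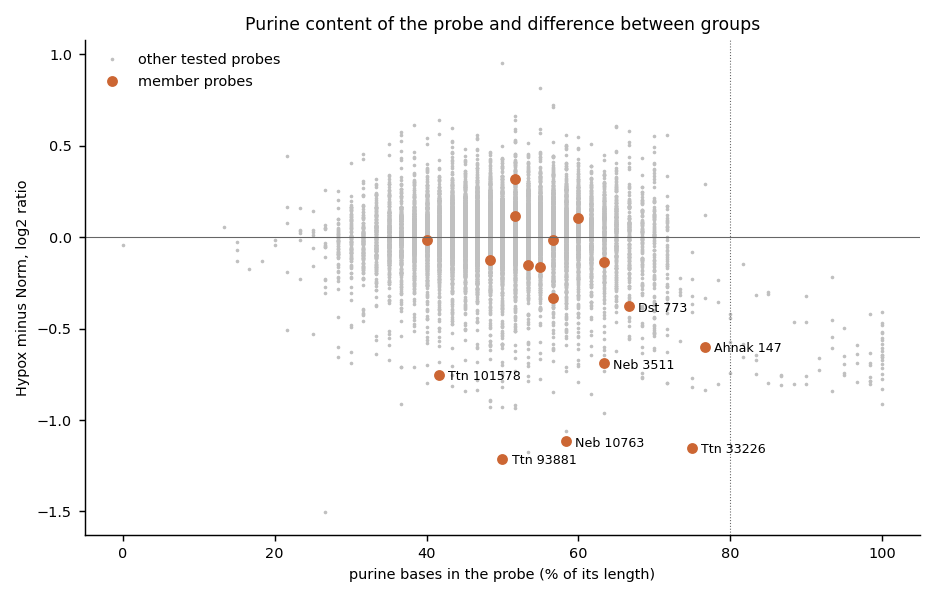
Share of purine bases in each tested probe (x axis, percent of its length) and its difference of Hypox minus Norm in log2 ratio (y axis), for member probes (orange, named where lower after adjustment) and other probes (grey). The 64 probes right of the dotted line at 80% all lie below 0, and the lower member probes lie between 41.7% and 76.7%.

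The spread of the lower members was larger in Norm than in Hypox. For *Ttn* base 93881 the SD was 0.66 in Norm and 0.29 in Hypox, which placed it at percentile 97.3 of all tested probes in Norm and 66.4 in Hypox. *Ttn* base 33226 (0.74 and 0.34), *Ttn* base 101578 (0.56 and 0.27), *Neb* base 10763 (0.60 and 0.40) and *Ahnak* base 147 (0.40 and 0.17) had the same order. *Ttn* base 2094 (0.28 and 0.47) and *Syne2* base 21630 (0.31 and 0.41) had the opposite one. Norm replicates 10 and 12 were the lowest of their group for *Ttn* base 33226 and *Neb* base 3511.

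Deviations from the group means showed which members moved together from array to array, over 24 arrays and with the pool as a common reference. The highest correlation was that of *Ttn* base 33226 with *Neb* base 3511 (r = 0.89), and both correlated with *Ahnak* base 147 (r = 0.79 each). *Ttn* base 93881 correlated with *Neb* base 10763 (r = 0.74) and *Dst* base 773 (r = 0.61). *Ttn* base 2094 was apart from the other *Ttn* probes (r between -0.07 and 0.23) and went with *Syne2* base 21630 (r = 0.75) and *Macf1* (r = 0.65). Hypox replicate 2 was the highest array for both *Ttn* base 2094 (1.12) and *Syne2* base 21630 (1.67), and was at 0.59 for *Macf1*. These correlations were not computed without that array. *Plec* was opposite to *Syne2* (r = -0.65).

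**Figure D5:**
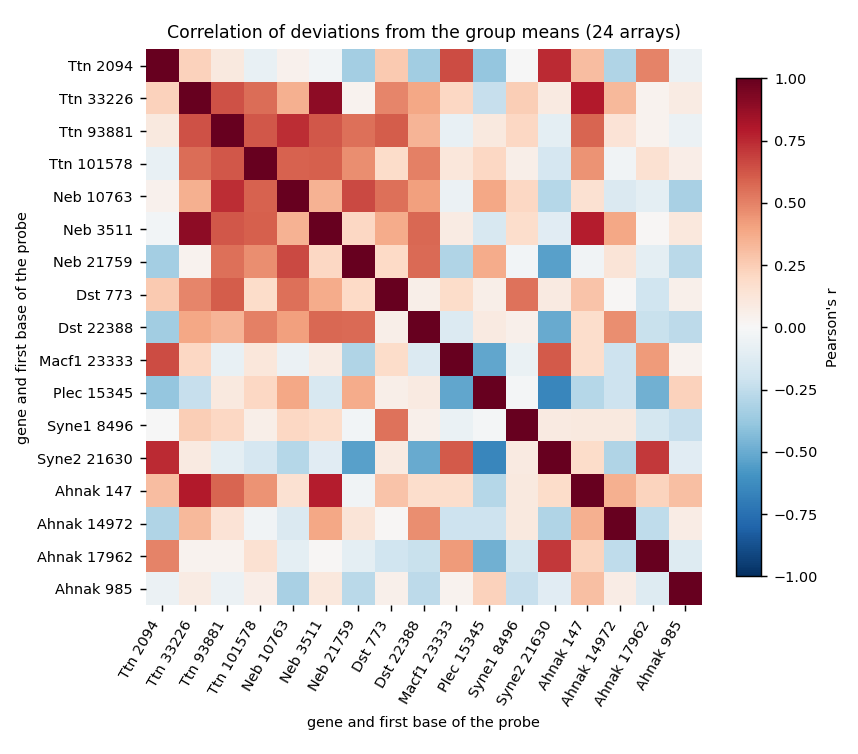
Pearson's r between the deviations of the 17 tested member probes from their group means over 24 arrays (both axes, gene and first base), from -1 in blue to 1 in red. *Ttn* base 33226, *Neb* base 3511 and *Ahnak* base 147 go together (r of 0.79 to 0.89), *Neb* base 10763 is closer to *Ttn* base 93881 (0.74) than to *Neb* base 3511 (0.35), and *Ttn* base 2094 pairs with *Syne2* base 21630 and *Macf1*. Hypox replicate 2 is the highest array for both *Ttn* base 2094 and *Syne2* base 21630.

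Within the groups, the brightest *Ttn* probe was related to the brightest probe of the other member genes, to the 3′ index and to the Cy5 brightness of the array, which made 18 relations, and 0 of these passed after adjustment (lowest adjusted p = 0.132). In Norm, Pearson's r with *Neb* was 0.61 (permutation p = 0.0331) and Spearman's rho 0.47 (permutation p = 0.127), and r was 0.38 without the 2 arrays farthest from the median of *Neb*. In Hypox, r with *Neb* was 0.53 (permutation p = 0.0748) and rho 0.39 (permutation p = 0.209). With slide means removed, r with *Neb* was 0.74 in Norm and 0.71 in Hypox. The brightness of the array gave r = -0.62 in Norm (permutation p = 0.0328) and -0.60 in Hypox (permutation p = 0.0376), and -0.49 and -0.46 with slide means removed. The 5 named genes most like the brightest *Ttn* probe by the same deviations over 24 arrays were *COX1* (r = 0.79), *Gm17511* (0.78), *Rpl23* (0.75), *Ndufb11* (0.75) and *Arhgef18* (0.74).

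Genes of proteins that bind titin and nebulin or share their place in the sarcomere were listed as partners. Of 39 such genes, 37 were tested and 0 passed after adjustment with limma. At the unadjusted threshold 1 was lower and 1 higher, and the median difference was 0.023. These were *Myot*, a Z-disc protein (-0.29, SE 0.11, adjusted p = 0.247), and *Ankrd1*, a stress-responsive partner of titin (0.25, SE 0.12, adjusted p = 0.320).

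Of 41 partners of the linkers at the nuclear envelope, the intermediate filaments and the membrane, 27 were tested. After adjustment 1 was lower and 0 higher, and without it 5 were lower and 2 higher, with a median of -0.038. The gene that fell was *Synm*, which encodes the intermediate filament protein synemin, from 0.38 ± 0.32 (Norm) to -0.070 ± 0.16 (Hypox; SD, n = 12 per group), a difference of -0.45 (SE 0.10, adjusted p = 0.0289 with limma). This call was lost with median centring and in the deposited table. Among all probes, 0 were lower after adjustment in either setting, and 1 was higher in the deposited table. Without adjustment *Dmd*, dystrophin (-0.39, adjusted p = 0.0706) and *Itgb1*, integrin β1 (-0.19, adjusted p = 0.217) were lower, and *Banf1*, which binds chromatin to the lamina (0.30, adjusted p = 0.156) and *Mapre1*, a microtubule end protein (0.14, adjusted p = 0.290) were higher.

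Markers of other cells and fibers were measured in the same arrays, and their part in the member differences was not tested. After adjustment, limma called 0 markers of any list, and the counts that follow are at the unadjusted threshold. Of the 6 adipocyte markers 4 were tested (*Plin1* and *Lep* were under the filter) and 2 were lower, with a median difference of -0.28. Their mean log2 ratio lay between -0.78 and 1.22 over the Norm arrays and between -0.75 and -0.13 over the Hypox arrays. Of the 7 nerve markers 6 were tested (not *Mag*) and 3 were lower, with a median of -0.17 and mean ratios between -0.37 and 0.48 over the Norm arrays and between -0.58 and 0.18 over the Hypox arrays. Of the 7 slow fiber markers 7 were tested and 2 were higher, with a median of 0.38 and mean ratios between -2.11 and 0.54 over the Norm arrays and between -0.30 and 0.18 over the Hypox arrays. Endothelial markers (5 of 8 tested, without *Pecam1*, *Tek* and *Emcn*) had a median of 0.28 with 3 higher, and fibroblast markers (6 of 6) 0.046 with 2 lower. Smooth muscle markers (4 of 5) had a median of -0.070 and red cell markers (2 of 5) 0.14, with 0 past the threshold in either. The 7 markers of muscle fibers had a median of 0.038 with 1 higher. Of the 6 lung markers *Sftpc* alone was tested, and it was higher by 0.81, between -2.04 and -0.16 over the Norm arrays and between -1.39 and 2.57 over the Hypox arrays.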

How the data were processed

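The authors deposited the output of Agilent Feature Extraction 10.7.3.1 for every array, as intensity per spot (mean signal and local background, not normalized), together with log2 values that they normalized with GeneMaths XT, for which the scaling and the use of the Cy3 channel are not stated. The medians of its columns lay between 6.57 and 6.58. Over probes, its columns correlated with the Cy5 signal of the same array (r between 0.95 and 1.00) more than with the log2 ratio (r between 0.042 and 0.61). Groups came from the sample labels. Dyes came from the descriptions, because the label field gives different dyes for part of the Hypox samples.

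Spots of control probes and 7260 readings flagged as outliers were left out, and 0 readings were saturated. After normexp background correction with an offset of 50, loess was applied within each array to the log2 ratio of sample over pool, and replicate spots were then averaged per probe. Of 55681 probes, 14421 whose mean Cy5 signal exceeded the local background over 2 times and that lacked a value on 4 arrays at most were tested, Hypox against Norm, with limma and Benjamini-Hochberg adjustment. The members, the partner lists, the marker lists and the tests were chosen with earlier results of these data known. The genes named are all probes of the members, the 5 genes most like *Ttn*, and up to 3 genes in each direction of a list past the unadjusted threshold. Partners and markers stand for the brightest tested probe of a gene. Probes were named by RefSeq accession (27235), symbol (3581) or synonym (565), and 24300 had no match. Permutation tests used 100000 resamples. Genes with a protein of 3000 residues or more were to be compared and were not used here, and probes starting at base 10000 or beyond took their place. Purine content, the differences between probes of a gene, the pairs at least 2000 bases apart and the inner *Ttn* probe were added after the data were seen. Alternatives were other filters, median centring, processed signals, Cy5 without Cy3, the deposited table, the t-test of the methods, slide and replicate number as blocks, and leaving out each array or the dimmest slide. Fits were run in R 4.3.3 with limma 3.58.1. Other steps were run in Python 3.11.15 with pandas 2.3.3 and numpy 2.4.6, and figures were drawn with matplotlib 3.10.9. The limma fit was tested on simulated data. The number of arrays limits the precision, and each array holds the RNA of 1 mouse.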

Additional observations from a re-analysis of the deposited data

How the results depend on the processing

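The direction of the 7 lower member probes held under every alternative run, but their calls did not. The number of member probes lower after adjustment was 7 in the reported fit, with the stricter filter, with processed signals and with the slide as a block, 6 with Cy5 alone and without the dimmest slide, 5 with the methods' t-test, 4 without the filter, and 0 with median centring and on the deposited values. With each array left out it was between 4 and 7, with 4 without Norm replicate 5, Norm replicate 7 or Hypox replicate 7. Member probes higher after adjustment were 0 in every fit. Without adjustment 8 or 9 were lower in most fits, 6 on the deposited values and 0 with median centring, and 1 was higher, or 0 with median centring, processed signals, Cy5 alone or the deposited table, and 0 or 1 with an array left out. Among all probes, 101 were lower and 35 higher after adjustment, against 36 and 9 without the filter, 0 and 0 with median centring, 177 and 76 with processed signals, 56 and 10 with Cy5 alone, 0 and 1 on the deposited values and 64 and 22 with the methods' t-test. With an array left out these were 32 to 167 and 8 to 64. At the unadjusted threshold, median centring called 2 lower and 55 higher and the deposited values 554 lower and 420 higher.

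The replicate numbers were not taken to pair the arrays. Deviations of arrays with the same number correlated between -0.21 and 0.40. Arrays with different numbers were not compared in this way, so these values do not decide whether the numbers mark pairs. The replicate block gave 44 lower and 18 higher among all probes and 5 lower member probes. Relations of *Ttn* past adjustment were 0 of 18 in the reported setting, 17 with median centring, 1 with slide means removed (*Dst* in Hypox) and 1 for the inner *Ttn* probe (*Neb* in Norm). With median centring, the brightest *Ttn* probe followed the brightness of the array (r = 0.94 in Norm and 0.92 in Hypox) and the 3′ index (0.98 and 0.97). The 3′ index differed by between 0.011 and 0.054 under all alternatives run, and 0 of these passed, with the lowest permutation p (0.0545) for pairs at least 2000 bases apart. The cause of these changes was not tested. With median centring, the differences of the 7 probes lay between -0.73 and -0.11, against a median of 0.24 over all probes. *Dst* base 773 passed after adjustment in 16 of 24 fits with an array left out, *Neb* base 3511 in 16, *Ttn* base 101578 in 18, and the other 4 in 24 of 24. Without the filter, the 64 purine-rich probes gave 6 lower calls, and with median centring 0 and a median of -0.25. For dim probes such as those of *Syne1*, the signal over background limits what can be seen.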
